A study of Homo sapiens with 6 samples.

Results

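The general transcription factors are the proteins that bring RNA polymerases to their promoters. They were followed here through the genes whose symbols begin with TAF or GTF and a digit, together with TBP. Members were taken as protein-coding genes of GENCODE whose counted transcript was matched by identifier, which gave 51 genes of 37339 matched transcripts, 19032 of them protein-coding. The annotation holds 62 genes of this rule, and the 11 without a matched transcript are all members of the TAF11-like cluster. All samples were untreated K562 cells, a chronic myelogenous leukemia line with erythroid features, which came as 4 libraries of total RNA depleted of rRNA (RNA-seq) and 2 PRO-seq libraries. By the methods of the study, all libraries came from a single flask of cells, so that each test measures the spread between libraries of 1 culture and not between cultures. The rule also takes in genes that are not general factors in the strict sense, such as TAF15, an RNA-binding protein of the FET family, and GTF2I, a sequence-specific regulator.

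At polymerase II promoters, TFIID, made of TBP and its associated factors (TAFs), binds the core promoter, TFIIA and TFIIB steady it, TFIIF escorts the polymerase, and TFIIE and TFIIH open the DNA. SL1 does the corresponding work for polymerase I and TFIIIA and TFIIIC for polymerase III, and several TAFs are shared with the histone acetylating complex SAGA. Most of these subunits are thought of as housekeeping proteins needed by every dividing cell.

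PRO-seq counts engaged polymerases on nascent RNA and RNA-seq counts RNA at steady state, so the RNA-seq level over the PRO-seq level of a transcription unit (TU) serves as a relative half-life, without a time unit. Levels were expressed in TPM, which divides counts by TU length and library size. Half-life is given below on the log2 scale, with 0 at the median mRNA, whose RNA-seq TPM was 0.643 times its PRO-seq TPM. In these bulk libraries, expression in fewer cells and less RNA per cell cannot be told apart. PRO-seq density also depends on the speed of elongation, and the part of that speed in any value here was not tested.

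Counts on TUs were 5732780 to 9002746 in RNA-seq and 6993816 and 7245632 in PRO-seq. RNA-seq replicates 1 and 3, and likewise 2 and 4, lay closer together than the other pairs (chi-square per degree of freedom 1.12 in each, against 1.74 to 2.11). All 8 K562 markers examined, such as GATA1 and the globin genes, were above 1 TPM in RNA-seq (28.4 to 6287). Of 5 matched markers of other cell types, the epithelial gene EPCAM stood at 120 TPM and CD3E, MPO, ALB and COL1A1 at 0.0229 to 0.483 TPM. The summed level of those 5 genes was 118 to 124 TPM over the 4 RNA-seq libraries, and its part in the results was not tested.

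Of the 51 members, 44 passed the thresholds of the half-life, which are a PRO-seq level over 10 TPM and an RNA-seq level over 1 TPM. Among them 24 (54.5%) were called above and 15 (34.1%) below the median mRNA by edgeR's quasi-likelihood test (Benjamini-Hochberg adjusted p under 0.05 over 9929 TUs), and 5 were not called. Of the 8733 mRNAs tested, 45.4% were called above and 44.9% below, and of all TUs of the 4 classes tested (mRNA, lincRNA, antisense and pseudogene) 40.4% and 50.0%. The median log2 half-life of the members was 0.28 (quartiles -0.34 and 1.18), against 0.00 (-1.06 and 1.08) for mRNAs. The 8 pairings of 1 RNA-seq with 1 PRO-seq library gave member medians of 0.27 to 0.37 (SD 0.033). Tested against a 2-fold difference (glmTreat), 11 members were above and 7 below, 25.0% and 15.9%, where mRNAs had 24.3% and 23.2%.

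The 11 members more than 2-fold above the median mRNA were GTF2A2, GTF2E1, GTF2E2, GTF2F1, GTF2F2, GTF3A, GTF3C6, TAF6L, TAF7, TAF9 and TAF11. The 7 below were TAF3, TAF4, TAF10, TAF15, TAF1C, GTF2H2 and GTF2IRD2. The members' nascent levels were narrowly spread, with an SD of log2 PRO-seq TPM of 0.855 against 1.24 for mRNAs. By SD their half-lives were not (1.88 against 1.68), a value that includes GTF2IRD2 (-5.28), TAF10 (-5.10) and TAF15 (-4.70). By quartiles their half-lives were the narrower (-0.34 and 1.18 against -1.06 and 1.08). Across the 44 members, Spearman's ρ between PRO-seq and RNA-seq TPM was 0.212, against 0.551 across 8733 mRNAs. Over the 31 members whose counted transcript is close to the canonical one (described below) it was 0.391, against 0.578 across 6574 such mRNAs, and over the other 13 members it was -0.313. These correlations are descriptions across genes that share the same libraries.

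**Figure D1:**
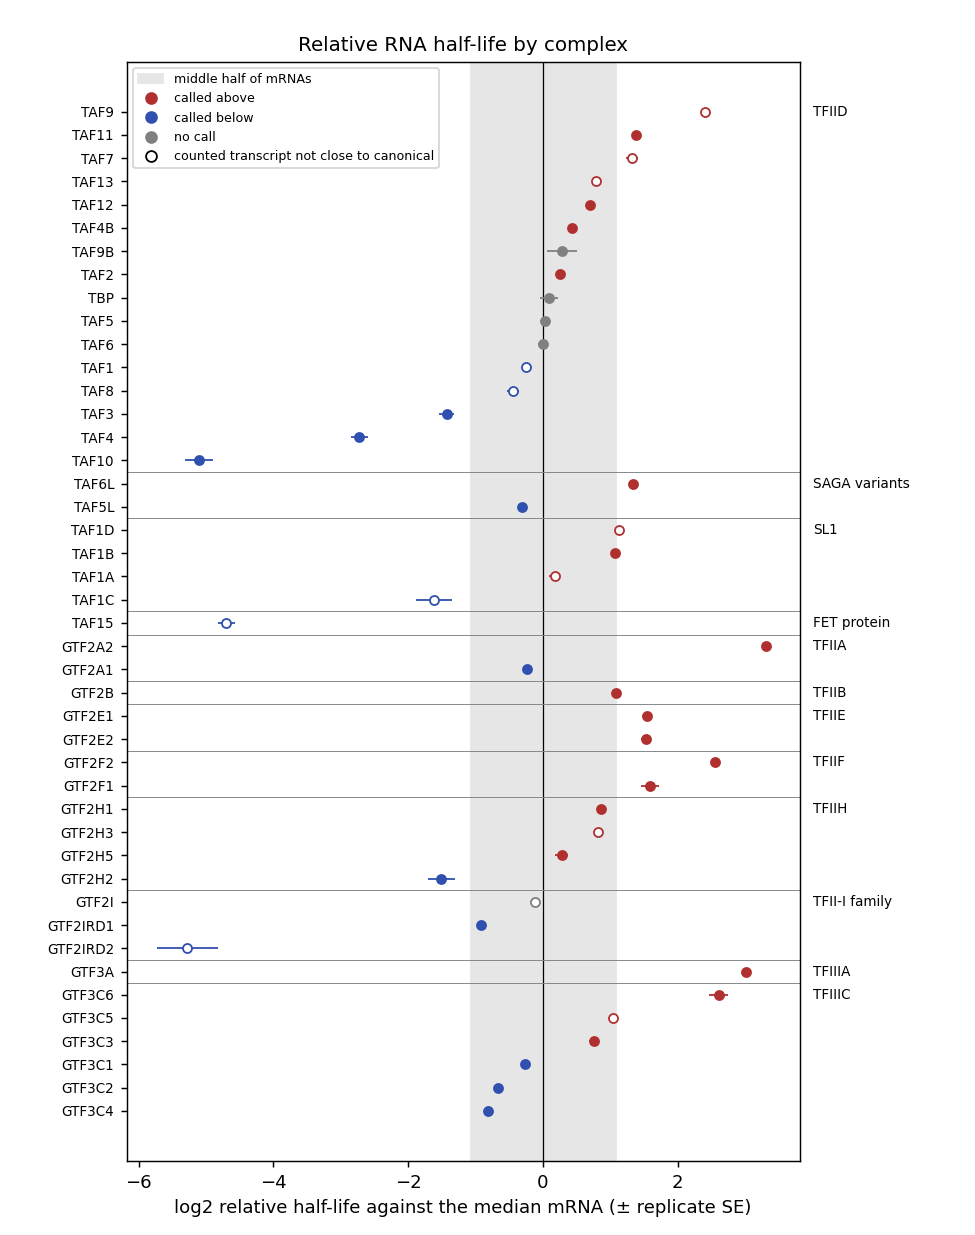
Log2 relative half-life of the 44 members past the thresholds, with 0 at the median mRNA, grouped by complex. GTF2IRD2, which had no canonical transcript to compare, is also drawn open. Points are values from summed counts, bars the SE over libraries, red and blue points the 24 members called above and the 15 called below, open points counted transcripts that are not close to the canonical one, and the grey band the middle 50% of mRNAs; values run from -5.28 (GTF2IRD2) to 3.32 (GTF2A2), and TAF5L, GTF2A1, TAF8, TAF1 and GTF3C1, called below, fall above 0 when TUs are taken from 1 summed count.

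The position of 0 matters for members close to it. When all TUs with at least 1 summed count were admitted, the median mRNA itself was 0.63 lower, and TAF5L, GTF2A1, TAF8, TAF1 and GTF3C1, called below with the thresholds, were then called above. The split of calls on that scale was 35 above and 11 below among 48 members. That setting took in 20644 TUs, 14965 of them mRNAs. Their shares of calls are not given here, so the split of the members has no background to be read against. The 7 members more than 2-fold below were also below on that wider scale.

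The deposited counts are for 1 transcript of each gene, named as the longest, and this transcript is not always the coding one. Nor is it always the longest by exons. The counted transcript was shorter than the canonical one in TAF1 (2199 against 7599 nt) and TAF8 (1805 against 6678 nt), and longer in TAF15 (4497 against 2162 nt). In 31 of the 44 members it held at least 90% of the coding bases of the canonical transcript and had at least 90% of its own exonic bases in it. Of these 31 members, 17 (54.8%) were called above and 10 (32.3%) below (median 0.29). Of the other 13, 7 (53.8%) and 5 (38.5%) were (median 0.17). Among mRNAs the medians had the other order. Of the 6574 close ones 44.2% were called above and 46.0% below (median -0.04), and of the 2159 others 48.9% and 41.8% (median 0.14). GTF2IRD2, placed with the 13, had no canonical transcript to compare. The counted transcript covered 0% of the canonical coding bases of TAF7, 2.88% of TAF1D, 24.2% of TAF1 and 65.9% of TAF15. For these genes the value belongs to the counted transcript and not to the main mRNA.

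TFIID was the group with the widest values. Of its 16 members, all past the thresholds, 7 were called above, 5 below and 4 were not called, with log2 half-lives from -5.10 (TAF10) to 2.40 (TAF9). Their RNA-seq levels spanned 43.8-fold and their PRO-seq levels 15.6-fold. The 3 lowest were TAF10, TAF4 and TAF3 and the 3 highest TAF9, TAF11 and TAF7.

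TBP, the subunit that bends the TATA box, read 54.4, 51.1, 56.9 and 53.7 TPM in RNA-seq replicates 1 to 4 and 85.8 and 71.8 TPM in PRO-seq. Its half-life of 0.09 ± 0.13 (SE over libraries) was not called (edgeR adjusted p = 0.304). The value was 0.23 without PRO-seq replicate 1 and -0.05 without PRO-seq replicate 2. At 10 summed counts TBP was called above (0.20, edgeR adjusted p = 0.0208). Each SE given here rests on 4 RNA-seq and 2 PRO-seq libraries. The SE and the main edgeR test both take the 4 RNA-seq libraries as independent. Replicates 1 and 3, and 2 and 4, lay closer together than the other pairs, so the SE and the adjusted p may be too small. Where the 2 PRO-seq libraries happen to agree, the SE can fall below the counting error. TAF5 and TAF6 help to form the core of TFIID. TAF5 read 16.2, 17.0, 16.1 and 19.6 TPM in RNA-seq and 26.6 and 25.9 TPM in PRO-seq. TAF6 read 29.0, 26.4, 25.4 and 26.6 TPM in RNA-seq and 40.4 and 43.5 TPM in PRO-seq. Their half-lives were 0.02 ± 0.068 and -0.00 ± 0.067, and neither was called (edgeR adjusted p = 0.820 and 0.993). Each of the 3 stood within about 1 SE of the median mRNA. At 1 summed count TAF6, like TBP and TAF5, was called above. Of the TAF6 span, 36.5% overlaps other TUs on the same strand, and the part of this overlap in its value was not tested.

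TAF1, the largest subunit and the scaffold that meets TBP, had a half-life of -0.26 and TAF8, a histone-fold partner of TAF10, one of -0.44, both called below and both above 0 at 1 summed count. TAF1 read 23.2, 24.9, 20.9 and 24.4 TPM in RNA-seq and 44.3 and 43.1 TPM in PRO-seq. TAF1 and TAF8 were both counted on transcripts other than the canonical one. TAF2, which contacts the initiator, lay at 0.25, and the histone-fold subunits TAF12, TAF13 and TAF11 lay at 0.70, 0.79 and 1.38, all called above. The counted TAF13 transcript has 30.9% of its bases in the canonical transcript. TAF7, a partner of TAF1, was also above (1.32), but on a 517-nt transcript that holds no canonical coding base. It read 47.3, 50.0, 39.99 and 47.8 TPM in RNA-seq and 30.3 and 28.0 TPM in PRO-seq.

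TAF10, a histone-fold subunit that TFIID shares with SAGA, had the highest PRO-seq level of all members. It read 248 and 298 TPM in PRO-seq and 5.71, 3.71, 5.76 and 5.71 TPM in RNA-seq replicates 1 to 4. The nascent level was higher than in 96.9% of mRNAs and the RNA level higher than in 10.0% of them. The half-life was -5.10 ± 0.20 (edgeR adjusted p = 1.27e-26), and without RNA-seq replicate 2, the low library, it was -4.93. The counted TAF10 transcript has 5313 nt of exons for 654 coding bases, and 38.5% of its exonic bases are shared with exons of other counted TUs on either strand (16.8% on the same strand). Of its span, over which PRO-seq reads are counted, 99.9% overlaps other TUs on either strand, ILK among them, and 47.3% on the same strand. Reads that fall on 2 genes on the same strand may be left out by HTSeq, depending on its settings. Whether strand was used in counting is not given, and the part of this overlap in the value was not tested.

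TAF4 and TAF4B are paralogs that fill the same place in TFIID, TAF4B being best known from germ cells. TAF4 read 3.61, 4.56, 3.10 and 3.91 TPM in RNA-seq replicates 1 to 4 and 38.5 and 41.1 TPM in PRO-seq. TAF4B read 25.2, 24.7, 24.3 and 24.4 TPM in RNA-seq and 29.0 and 27.8 TPM in PRO-seq. The order of the paralogs thus differed between the assays in all libraries, with TAF4B 6.55-fold higher at steady state and TAF4 1.40-fold higher in nascent RNA. Their half-lives were -2.73 ± 0.13 and 0.44 ± 0.034, a difference of 3.20 ± 0.14 on the log2 scale. Both counted transcripts are the canonical ones and do not overlap another counted exon.

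TAF3, the subunit that reads trimethylated H3K4, read 4.59, 3.40, 4.24 and 4.72 TPM in RNA-seq and 17.9 and 17.2 TPM in PRO-seq, the lowest nascent level of the 44 members. Its half-life of -1.43 ± 0.11 was called below (edgeR adjusted p = 8.03e-15). TAF3 and TAF4 thus had close steady-state levels of 4.19 and 3.86 TPM from nascent levels of 17.6 and 39.8 TPM.

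TAF9 and its paralog TAF9B, both histone-fold subunits, differed at steady state more than in nascent RNA. TAF9 read 168, 169, 171 and 169 TPM in RNA-seq and 50.7 and 48.9 TPM in PRO-seq. TAF9B read 17.6, 18.7, 19.0 and 20.7 TPM in RNA-seq and 20.4 and 27.7 TPM in PRO-seq. TAF9 was higher in every library, 8.92-fold in RNA-seq and 2.09-fold in PRO-seq, with half-lives of 2.40 ± 0.028 (called above) and 0.29 ± 0.23 (edgeR adjusted p = 0.0718). TAF9B was called above at 10 summed counts (0.40, edgeR adjusted p = 0.0125). With 500 bp in all left out for PRO-seq it was called above too (0.32, edgeR adjusted p = 0.0489). Without PRO-seq replicate 2 its half-life was 0.51, and at 1 summed count 0.92. The nascent value of TAF9 rests on 56 and 55 counts, so its SE of 0.028 may be too small. Of its span, 90.6% overlaps other TUs on the same strand, and all of it on either strand. The part of this overlap in the value of TAF9 was not tested.

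TAF5L and TAF6L replace TAF5 and TAF6 in SAGA. TAF5L read 40.3, 42.3, 41.6 and 41.7 TPM in RNA-seq and 79.5 and 80.5 TPM in PRO-seq, and TAF6L 49.4, 51.1, 46.4 and 45.9 TPM in RNA-seq and 30.8 and 28.9 TPM in PRO-seq. From nascent levels 2.68-fold apart, with TAF5L the higher, the pair came to RNA levels 1.16-fold apart, with TAF6L the higher in 4 of 4 libraries. TAF6L was called above (1.34 ± 0.058), while TAF5L was called below (-0.31 ± 0.017) with the thresholds and above (0.32) at 1 summed count. Compared with the TFIID paralogs, TAF5L was higher than TAF5 in both assays (2.42-fold in RNA-seq and 3.05-fold in PRO-seq), and TAF6L was higher than TAF6 in RNA-seq (1.79-fold) and lower in PRO-seq (TAF6 1.41-fold higher). Of the TAF6L span, 98.3% overlaps TMEM223, a TU on the other strand.

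TAF15 had a half-life of -4.70 ± 0.13 (edgeR adjusted p = 5.72e-29). It read 208 and 192 TPM in PRO-seq, the second nascent level among members, and 4.06, 5.96, 4.85 and 4.75 TPM in RNA-seq. The transcript counted for TAF15 is annotated as a retained intron form, and 31.4% of its 4497 exonic bases belong to the canonical transcript, so this value says little about TAF15 mRNA.

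SL1 joins TBP to TAF1A, TAF1B, TAF1C and TAF1D at ribosomal DNA promoters. Of these 4 members, 3 were called above and TAF1C below. TAF1C read 13.1, 12.5, 14.1 and 15.4 TPM in RNA-seq and 53.1 and 76.1 TPM in PRO-seq, for a half-life of -1.61 ± 0.27. TAF1D read 75.2, 83.6, 76.6 and 82.7 TPM in RNA-seq and 56.2 and 57.3 TPM in PRO-seq, for a half-life of 1.13 ± 0.041, on a 335-nt transcript with 2.88% of the canonical coding bases. TAF1B, the TFIIB-like subunit, lay at 1.07 ± 0.022 on its canonical transcript. The call of TAF1A (0.17, edgeR adjusted p = 0.0305) was lost without RNA-seq replicate 2 (0.13, edgeR adjusted p = 0.111), without PRO-seq replicate 2 (0.09, edgeR adjusted p = 0.367), in DESeq2 (adjusted p = 0.115), with 500 bp in all left out for PRO-seq (edgeR adjusted p = 0.0647) and when RNA-seq replicates 1 and 3, and 2 and 4, were added together (edgeR adjusted p = 0.0501).

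The largest contrast within a factor of few subunits was in TFIIA. GTF2A1 encodes the precursor of the α and β subunits and GTF2A2 the γ subunit. GTF2A2 read 201, 196, 185 and 203 TPM in RNA-seq and 31.2 and 30.2 TPM in PRO-seq. GTF2A1 read 30.7, 31.5, 33.1 and 32.3 TPM in RNA-seq and 58.7 and 57.4 TPM in PRO-seq. GTF2A2 was thus 6.15-fold higher at steady state while GTF2A1 was 1.89-fold higher in nascent RNA, with no overlap between libraries in either assay. GTF2A2 had the highest half-life of all members, 3.32 ± 0.037 (edgeR adjusted p = 5.14e-27), higher than 97.6% of mRNAs. GTF2A1 lay at -0.23 ± 0.028 with the thresholds, called below, and at 0.40 at 1 summed count. Of the GTF2A2 span, over which PRO-seq reads are counted, 67.9% overlaps another TU on the same strand. None of its exonic bases, over which RNA-seq reads are counted, overlap one. The part of this overlap in the nascent level and half-life of GTF2A2 was not tested.

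GTF2B encodes TFIIB, the single protein that links TBP to the polymerase. It read 74.6, 79.8, 79.5 and 81.0 TPM in RNA-seq and 57.3 and 57.9 TPM in PRO-seq, for a half-life of 1.08 ± 0.027, called above.

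The 2 subunits of TFIIE, which recruits TFIIH, kept the same ratio in both assays. GTF2E2 read 106, 127, 117 and 115 TPM in RNA-seq and 61.5 and 64.4 TPM in PRO-seq, and GTF2E1 37.2, 41.4, 42.1 and 43.6 TPM in RNA-seq and 21.2 and 22.5 TPM in PRO-seq. GTF2E2 was 2.83-fold higher at steady state and 2.88-fold higher in nascent RNA. Their half-lives of 1.52 ± 0.064 and 1.54 ± 0.064 differed by -0.03 ± 0.047, less than the spread between libraries.

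The 2 subunits of TFIIF, which travels with the polymerase, were closer at steady state than in nascent RNA. GTF2F1 read 132, 121, 127 and 124 TPM in RNA-seq and 59.0 and 70.8 TPM in PRO-seq, and GTF2F2 98.2, 105, 105 and 103 TPM in RNA-seq and 27.5 and 26.7 TPM in PRO-seq. GTF2F1 was 1.23-fold higher at steady state and 2.39-fold higher in nascent RNA. Both were called above, at 1.59 ± 0.13 and 2.56 ± 0.032. Of the GTF2F1 span, 26.8% overlaps another TU on the same strand, and the part of this overlap in its value was not tested.

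TFIIH carries the helicases and the kinase that act on promoter DNA and on the polymerase, and 4 of its 6 members named GTF2H passed the thresholds. GTF2H1 read 104, 104, 110 and 111 TPM in RNA-seq and 89.7 and 92.2 TPM in PRO-seq, for a half-life of 0.87 ± 0.033, called above. GTF2H3, at 0.81, was also above. GTF2H5, the smallest subunit with 213 coding bases in a transcript of 7483 nt, lay at 0.28 (edgeR adjusted p = 0.00455), a call lost without PRO-seq replicate 2 (0.17, edgeR adjusted p = 0.151).

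GTF2H2 had the third nascent level of all members, at 152 and 147 TPM, and read 34.3, 27.3, 26.9 and 48.1 TPM in RNA-seq, for a half-life of -1.51 ± 0.20. Its near-identical copy GTF2H2C read 6.18 and 5.72 TPM in PRO-seq, below the threshold, and 13.6, 17.7, 12.8 and 15.0 TPM in RNA-seq. GTF2H2 exceeded GTF2H2C 25.2-fold in nascent RNA and 2.26-fold at steady state. Reads of such copies can be split or dropped in counting, so the values of both are uncertain.

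GTF2H4 had no count in any of the 6 libraries, where 3 counts would be 0.129 TPM in RNA-seq and 1.17 TPM in PRO-seq over all libraries. Of its exonic bases, 98.0% are shared on the same strand with another counted TU, a noncoding readthrough gene. Reads that fall on both may be left out by HTSeq, depending on its settings, which are not given. Whether this overlap gave the absence of counts was not tested, so no level of GTF2H4 is read from them.

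None of the 3 tested members of the TFII-I family was called above the median mRNA with the thresholds. GTF2IRD1 lay at -0.91 ± 0.062 and was called below. GTF2I itself read 26.0, 23.5, 28.7 and 23.8 TPM in RNA-seq and 41.9 and 43.3 TPM in PRO-seq, and its half-life of -0.11 ± 0.070 was not called (edgeR adjusted p = 0.10), though it was called below without RNA-seq replicate 3 (-0.16) and with 500 bp in all left out for PRO-seq (-0.16, edgeR adjusted p = 0.0244), and above at 1 summed count (0.51). GTF2IRD2 read 2.64, 1.09, 0.683 and 0.744 TPM in RNA-seq, from 23, 10, 4 and 5 counts, and 81.3 and 84.8 TPM in PRO-seq. Its half-life of -5.28 ± 0.45 was the lowest of the 44 tested members, but close to that of TAF10: the order of the pair turned without RNA-seq replicate 3 (-5.11 against -5.14 for TAF10), without RNA-seq replicate 4 (-5.10 against -5.15) and with the replicate number as a block (-4.84 against -5.22). Without RNA-seq replicate 1 the gene falls under 1 TPM and has no value. GTF2IRD2B read 0.217, 0.480, 1.29 and 0.188 TPM in RNA-seq and 10.4 and 10.3 TPM in PRO-seq and was not tested. Its RNA-seq libraries overlapped with those of GTF2IRD2, while in PRO-seq GTF2IRD2 was 8.05-fold higher. GTF2I, GTF2IRD2 and GTF2IRD2B have near-identical copies or pseudogenes on chromosome 7, and their values are uncertain for that reason.

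Both polymerase III groups held genes with very high RNA levels. GTF3A encodes TFIIIA, the zinc finger protein that binds the 5S rRNA gene and 5S rRNA. It read 315, 284, 309 and 301 TPM in RNA-seq, the highest level of all members, and 56.5 and 59.9 TPM in PRO-seq. Its half-life was 3.01 ± 0.053 (edgeR adjusted p = 6.14e-26).

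TFIIIC, which binds the internal promoters of tRNA genes, had 3 of 6 members called above and 3 below. GTF3C6, the smallest subunit, read 297, 287, 298 and 307 TPM in RNA-seq and 68.7 and 82.7 TPM in PRO-seq. GTF3C4 read 30.1, 28.9, 28.1 and 26.5 TPM in RNA-seq and 79.5 and 76.1 TPM in PRO-seq. The pair had overlapping nascent levels and RNA levels 10.5-fold apart, with half-lives of 2.61 ± 0.14 and -0.81 ± 0.050. Nascent levels of the 6 subunits spanned 2.10-fold and RNA levels 10.4-fold. GTF3C5 (1.04) and GTF3C3 (0.76) were the others above, and GTF3C2 (-0.67) and GTF3C1 (-0.26, but 0.37 at 1 summed count) the others below.

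None of the 4 germ-cell paralogs passed the RNA-seq threshold. TAF7L had 2, 1, 1 and 1 counts in RNA-seq and 8 and 7 in PRO-seq, about 0.157 TPM in RNA-seq and 1.21 TPM in PRO-seq, where TAF7 had 46.8 and 29.1 TPM. TAF1L, a retrogene of TAF1 without introns, had 5, 2, 1 and 0 counts in RNA-seq but 23 and 36 in PRO-seq, or 17.1 and 26.2 TPM, a nascent level higher than that of 17.7% of the mRNAs past the thresholds. Of its span, 35.6% overlaps a TU on the other strand, and it resembles TAF1. GTF2A1L had no count, where 3 counts would be 0.415 TPM in RNA-seq, and all of its span lies in TUs on the same strand. TAF11L12 had no count either, and 3 counts would be 0.203 TPM in RNA-seq and, over the short stretch left for PRO-seq, 65.3 TPM. Intervals and limits of this kind cover counting error only.

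Members with short transcripts lay higher. Of 15 members with at most 2 kb of exons, 12 (80.0%) were called above and 2 (13.3%) below (median 1.13). Of 29 with longer exons, 12 (41.4%) were called above and 13 (44.8%) below (median -0.00). Among the 2483 shorter mRNAs, 61.4% were called above and 27.9% below (median 0.87). Among the 6250 longer ones, 39.0% were called above and 51.7% below (median -0.23). Spearman's ρ between half-life and exonic length was -0.580 across the 44 members and -0.331 across mRNAs, and for splice junction density it was 0.124 and 0.369. Exonic length is part of the RNA-seq TPM itself, so the variables are not independent.

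Genes that work with these factors but that the rule leaves out also lay on both sides of the median mRNA. Of 20 such genes, 18 passed the thresholds, with 9 called above, 7 below and 2 not called (median 0.22). In the TFIIH kinase and helicase group, CDK7, the kinase, lay highest (2.15) and ERCC2, a helicase, lowest (-0.95) of those past the thresholds. The counted CDK7 transcript holds 64.6% of the canonical coding bases. Among TBP relatives and regulators past the thresholds, TBPL1 lay lowest (-0.43), and BTAF1, which removes TBP from DNA, lay at 1.12. DRAP1, part of the NC2 repressor of TBP, lay at 4.02, from 6 and 8 PRO-seq counts, and SNAPC4, of the snRNA promoter complex SNAPc, at -2.04. Of TFIIIB, BRF2 lay lowest (-0.90). Among 30 RNA polymerase subunit genes past the thresholds, 21 were called above and 9 below (median 1.07), and among 27 Mediator genes, 10 and 15 (median -0.45), with the general factors in between. These medians were not tested against each other.

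Core promoters are where these proteins act, and those of their own genes are shown for the motifs in them. Promoters of 43 of the 51 members (RefSeq, GRCh38.p14, 250 bases before to 50 after the start) were matched by symbol. TATAAA, the TATA box core, began 40 to 20 bases before the start on the sense strand in 1 of 43 members (2.33%), that of TFIIB, and in 3.37% of 14561 mRNA promoters. Past the thresholds the order was the other way, with 2.63% of members and 1.31% of mRNAs. CCGGAAG, the core to which ETS family factors bind, lay on either strand in 21 of 43 members (48.8%), against 14.7% of those mRNA promoters. Of members past the thresholds it was in 20 of 38 (52.6%), against 22.7% of 7226 mRNAs past them. CCAAT (either strand) was in 39.5% of members and 36.3% of mRNAs, and GGGCGG (either strand), the GC box, in 55.8% and 60.4%. Past the thresholds CCAAT was in 39.5% of members and 38.1% of mRNAs, and GGGCGG in 57.9% and 72.9%. None of these motifs contains another, and a match is only a match of letters. The 60 bases before the start are given for GTF2B, the 1 member with TATAAA, and for 4 members with CCGGAAG in that stretch, the contrasting pair of TFIIA and 2 histone-fold subunits of TFIID. Capitals mark the motif, and CTTCCGG is CCGGAAG on the other strand.
GTF2B (chr1:88891568-88891627, minus strand): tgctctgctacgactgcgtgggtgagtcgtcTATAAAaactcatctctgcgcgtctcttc
GTF2A1 (chr14:81221391-81221450, minus strand): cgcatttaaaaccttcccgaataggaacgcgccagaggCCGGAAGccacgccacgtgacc
GTF2A2 (chr15:59657516-59657575, minus strand): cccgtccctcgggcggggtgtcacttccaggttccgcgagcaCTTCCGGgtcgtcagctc
TAF12 (chr1:28643068-28643127, minus strand): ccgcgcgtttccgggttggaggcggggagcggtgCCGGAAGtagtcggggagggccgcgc
TAF13 (chr1:109076004-109076063, minus strand): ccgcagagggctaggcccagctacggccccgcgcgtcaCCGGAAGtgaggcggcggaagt

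CCGGAAG was in the promoters of all 4 SL1 genes, both TFIIA genes, GTF3A and 5 of the 6 TFIIIC genes, and in none of GTF2B, TBP, TAF4, TAF9 and TAF10. The 20 members with it had a median PRO-seq level of 60.2 TPM and the 18 without it one of 34.8 TPM, where mRNAs past the thresholds had 56.8 and 45.8 TPM. Median half-lives were 0.73 with the motif and 0.36 without it in members, and 0.15 and -0.01 in mRNAs. GTF2A1 and GTF2A2, both with the motif, had opposite orders in the assays, as described above.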

How the data were processed

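Total RNA-seq (n = 4 libraries) and PRO-seq (n = 2) of K562 cells were analysed. The authors deposited raw read counts per transcript: reads were trimmed with Cutadapt, aligned to GRCh38 with HISAT2 and counted with HTSeq on GENCODE, leaving out TU ends for PRO-seq. The sources used here give neither tool versions nor the strand setting. Lines that name no TU held 66.5% to 68.6% of RNA-seq and 86.5% and 88.6% of PRO-seq records and were left out. Of 42371 transcripts, 37339 were matched by identifier to GENCODE lifted to GRCh37, which gave lengths, classes and overlaps. TPM used exon length for RNA-seq and span minus 500 bp at each end for PRO-seq. The counts were tested with edgeR 4.0.16 (R 4.3.3; quasi-likelihood, TMM, length offsets, centred on the median mRNA), with DESeq2 1.42.0 as an alternative, and Python 3.11.15 for other steps. On simulated counts for this comparison (9925 TUs), 94.0% of 200 changes of 1 log2 unit were recovered by edgeR, with 7 false calls. The simulation gave all TUs the same dispersion and kept all but the 200 at the ratio of the median mRNA. In the data 45.4% of mRNAs were called above and 44.9% below, so these rates need not hold for the real calls. Overlaps count bases shared with other counted TUs. Per-library values were given for the highest and lowest member of each complex, the 3 highest in each assay, the 3 highest and lowest half-lives, members without counts, and paralogs. Other members are named by role. Members and lists were chosen with earlier results of these data known. The published libraries that the study also used were not analysed here.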

Additional observations from a re-analysis of the deposited data

Results flagged for a closer look

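In 4 of the 44 tested members, 1 of the 4 RNA-seq libraries stood apart from the other 3 by more than Dixon's 95% limit, which chance alone exceeds in about 1 of 20 groups. TAF10 read 3.71 TPM in replicate 2 and 5.71 to 5.76 TPM in the others. TAF12 read 102.7 TPM in replicate 1 and 88.7 to 89.2 TPM in the others. GTF3C2 read 39.70 TPM in replicate 3 and 43.56 to 44.04 TPM in the others. GTF3C1 read 27.6 TPM in replicate 4 and 30.1 to 30.6 TPM in the others. No single library was the odd one in more than 1 of these genes, and the calls of TAF10, TAF12, GTF3C2 and GTF3C1 were the same without each library in turn.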

How the results depend on the processing

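Counts of 24 members above and 15 below the median mRNA stayed within 1.5 times under every alternative but the test against a 2-fold difference (11 above, 7 below). With each library left out in turn they were 23 to 25 and 14 to 16, and the member median 0.26 to 0.33. The median was 0.40 at 10 summed counts without TPM thresholds and 0.89 at 1 summed count, where the median mRNA was 0.63 lower. At 1 summed count the sign changed for TAF5L (0.32), GTF2I (0.51), GTF2A1 (0.40), TAF8 (0.19), TAF1 (0.37), TAF6 (0.63) and GTF3C1 (0.37). DESeq2 and RNA-seq replicates summed in the close pairs each gave 23 above and 15 below. The numbers of RNA-seq and PRO-seq replicates do not pair the libraries (correlation of deviations -0.01 over 9841 TUs), and a fit with the replicate number as a block, on replicates 1 and 2 of each assay, gave 24 above and 15 below. Restricting to counted transcripts close to the canonical one, chosen after seeing the data, gave 17 above and 10 below of 31. Over all alternatives, 568 of 615 values of single members kept their call and direction. Of the 44 members, 26 changed call under at least 1 alternative, the test against a 2-fold difference included. No value could be had for GTF2IRD2 without RNA-seq replicate 1. Depth limits GTF2IRD2, with 4 to 23 RNA-seq counts per library, and TAF9B and TAF9, with 47 to 65 PRO-seq counts.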
